A study of Mus musculus with 9 samples.

Results

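The genes described here are 9 genes of the chemokine system measured in mouse testis: the ligand genes Ccl2, Ccl5, Ccl7, Cxcl1, Cxcl10, Cxcl12, Cxcl16 and Cx3cl1 and the receptor gene Cxcr4. They were taken as every probe set, a group of short oligonucleotides read as a single signal, that the annotation of the array assigns to exactly 1 of these genes. This gave 17 of 45037 probe sets and 9 of 18193 genes. The samples were testes of 24-week-old C57BL/6J mice, 5 from Tmem203 null animals and 4 from WT animals, with no treatment in either group. TMEM203 is a membrane protein of the endoplasmic reticulum. The null allele was made in C57BL/6 embryonic stem cells by replacing the translation start and a stretch of exon sequence before it, after which the selection cassette was removed with Flp recombinase. The left and right testis of an animal were taken one by one, and the labels do not say whether each array is a separate animal. The p-values therefore describe how much these samples varied, which may be less than animals do. The values are log2 signals normalized by Robust Multichip Average (RMA), and null and WT were compared with limma, with p adjusted over all probe sets.

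Chemokines are small secreted proteins, named by the spacing of their first cysteines (CC, CXC, CX3C), that bind G protein-coupled receptors and direct the movement of cells along a gradient. Inflammatory members such as CCL2, CCL5, CXCL1 and CXCL10 recruit monocytes, T cells or neutrophils, while CXCL12 acts in the steady state. In the testis, CXCL12 from Sertoli cells and CXCR4 on spermatogonial stem cells are known to take part in stem cell homing and maintenance.

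Promoters of inflammatory chemokine genes are known to hold binding motifs of NF-kB and interferon-responsive factors, and 3 promoters are shown because their genes gave 3 different results below: Cxcl1, which was higher in null testes without reaching 1.5-fold, Cxcl10, which did not pass the test, and Cxcr4, which rose. The sequences are the 220 bases before the RefSeq start on the gene's strand in GRCm38.p6, at chr5:90891025-90891244 (plus strand) for Cxcl1, chr5:92348890-92349109 (minus strand) for Cxcl10 and chr1:128592300-128592519 (minus strand) for Cxcr4. Capitals mark the motifs searched on both strands, namely the NF-kB consensus, the interferon-response core GAAANNGAA and the TATA box TATAAA.
Cxcl1: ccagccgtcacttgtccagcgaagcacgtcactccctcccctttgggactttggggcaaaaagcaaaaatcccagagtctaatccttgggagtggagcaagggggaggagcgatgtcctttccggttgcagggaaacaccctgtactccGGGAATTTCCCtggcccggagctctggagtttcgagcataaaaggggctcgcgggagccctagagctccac
Cxcl10: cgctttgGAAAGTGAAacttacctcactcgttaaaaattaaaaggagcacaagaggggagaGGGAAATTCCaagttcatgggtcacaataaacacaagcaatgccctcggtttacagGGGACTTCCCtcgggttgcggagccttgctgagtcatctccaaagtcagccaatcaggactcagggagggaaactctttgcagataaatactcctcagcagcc
Cxcr4: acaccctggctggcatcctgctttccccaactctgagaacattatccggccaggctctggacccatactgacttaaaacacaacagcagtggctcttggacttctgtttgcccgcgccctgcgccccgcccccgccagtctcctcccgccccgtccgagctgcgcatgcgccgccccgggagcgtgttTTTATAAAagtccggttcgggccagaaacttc
In the Cxcl1 promoter the NF-kB consensus matched on both strands at nearly the same place, from 71 bases before the start. The Cxcl10 promoter matched it at 159 and 103 bases before the start and held GAAANNGAA at 213. The Cxcr4 promoter held neither of these motifs, and TATAAA lay 30 bases before its start and overlapped a match on the other strand. Over the 250 bases before the start, the NF-kB consensus was found in 3.9% of 32851 RefSeq promoters, GAAANNGAA in 7.13% and TATAAA in 12.4%. Promoter sequences were at hand for 5 of the 9 genes. Besides those shown, Cx3cl1 held TATAAA and Cxcl12 held none of the 3 motifs. The promoters of Ccl5, Ccl2, Ccl7 and Cxcl16 were missing, so that of Ccl5, the only one of the 9 genes that fell, could not be searched. A match describes the letters only.

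Of the 9 genes, Ccl5 fell in Tmem203 null testes, Cxcr4 and Cxcl1 rose, and the other 6 did not pass. Each gene with several probe sets was represented by the one that gave the smallest p. Over all genes counted in that way, 13.5% passed an adjusted p under 0.05, made up of 7.22% of all genes that rose and 6.24% that fell in the null group. The methods further ask for a change of at least 1.5-fold and a log2 signal that reaches 5 on 1 or more arrays, here named the detection level, and a gene was called where any of its probe sets met every threshold. By this rule Ccl5 and Cxcr4 were called, against 2.33% of all genes. The paper lists Cxcr4 among its up-regulated genes, while Ccl5 is in neither of its lists of changed genes, for which it gives no reason. By probe set, 4 of 17 passed, against 7.48% of all probe sets. The groups did not overlap in the same number, 4 of 17, against 11.8% of all probe sets. The signals of 14 of the probe sets and 8 of the genes reached the detection level, Ccl7 being the exception. Direction was mixed, with 11 probe sets higher and 6 lower in null testes.

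**Figure D1:**
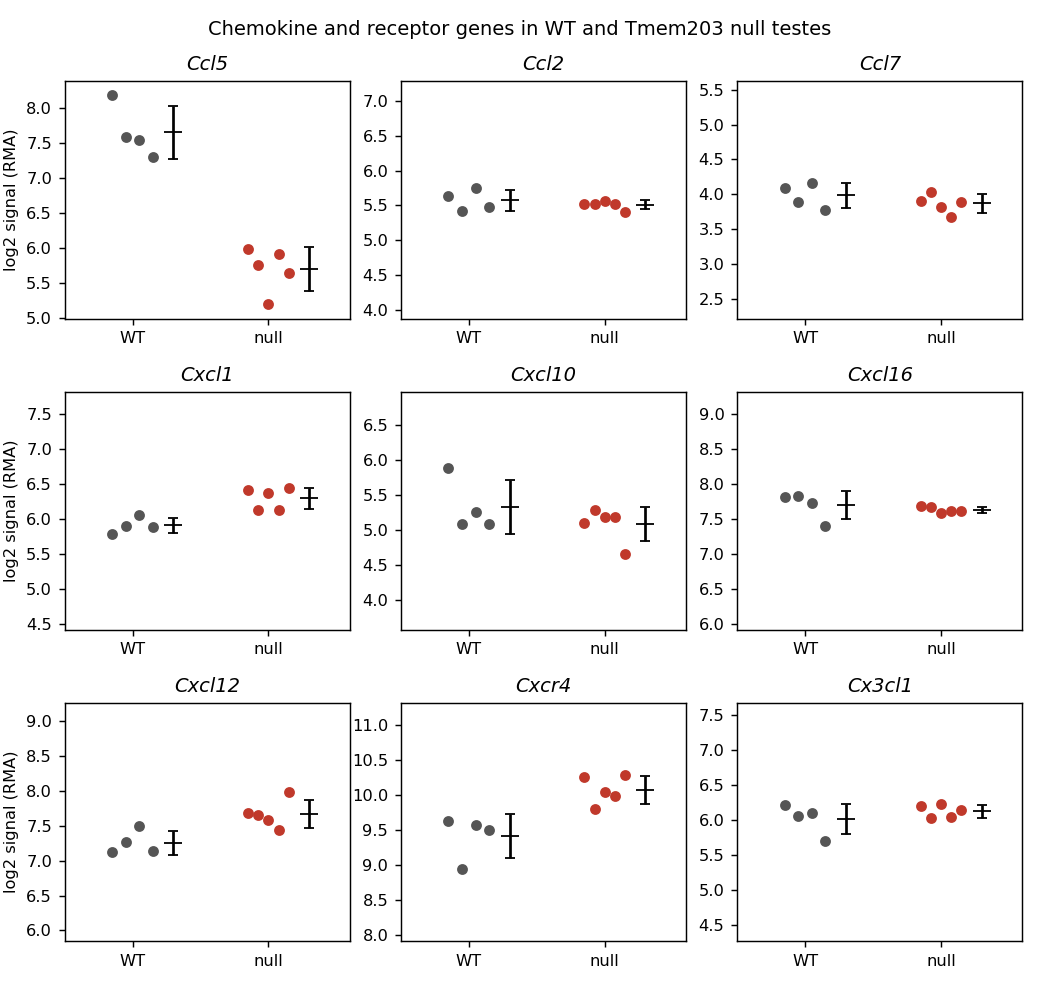
Log2 RMA signal of each sample for the probe set with the smallest p of each of the 9 genes, with WT in grey (n = 4), Tmem203 null in red (n = 5) and the bar showing mean ± SD. Every panel spans the same number of log2 units, so that the separation of the groups at Ccl5 can be set against those at Cxcr4 and Cxcl1 and against the overlap of the other genes.

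Ccl5 encodes a CC ligand, also called RANTES, that attracts T cells, monocytes and eosinophils and is made by T and NK cells among others. Its probe set 1418126_at gave log2 signals of 8.19, 7.59, 7.55 and 7.30 in WT replicates 1 to 4. In null replicates 1 to 5 it gave 6.00, 5.76, 5.20, 5.92 and 5.65. The highest null sample was below the lowest WT sample by more than the range of either group, and every sample stayed above the detection level. Ccl5 fell by 1.95 log2 units (standard error 0.19, 95% interval -2.38 to -1.53, adjusted p = 4.36e-04, limma), a 3.88-fold lower signal. It passed in each of 17 alternative analyses. In RNA of a whole testis, fewer cells of a type and less RNA per cell cannot be told apart.

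Ccl2 and Ccl7, the other CC ligands of the set, attract monocytes through CCR2. Ccl2 (1420380_at) gave 5.64, 5.43, 5.75 and 5.48 in WT and 5.53, 5.52, 5.57, 5.53 and 5.41 in null testes. The null samples lay within or just below the WT range, and the difference was -0.06 (95% interval -0.22 to 0.10, adjusted p = 0.655). Ccl7 (1421228_at) stayed below the detection level on every array, between 3.78 and 4.16 in WT and between 3.68 and 4.04 in null testes, with a difference of -0.11 (95% interval -0.32 to 0.09, adjusted p = 0.512). For both genes the interval of the difference lay within 1.5-fold in either direction.

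Cxcl1 encodes a CXC ligand that attracts neutrophils through CXCR2, and 3 probe sets read it. With 1441855_x_at the log2 signals were 5.79, 5.91, 6.05 and 5.89 in WT and 6.41, 6.13, 6.37, 6.13 and 6.44 in null testes. Every null sample was above every WT sample, and the gene rose by 0.39 (standard error 0.09, adjusted p = 0.0225). With 1419209_at the signals were 4.37, 3.85, 4.45 and 4.26 in WT and 4.62, 4.87, 5.11, 4.70 and 4.75 in null testes. Again the groups did not overlap, but only null replicate 3 reached the detection level, and the difference of 0.58 (standard error 0.13, adjusted p = 0.0253) stayed under 1.5-fold. The probe set 1457644_s_at did not pass, with 0.31 (standard error 0.09, adjusted p = 0.0623), its highest WT and lowest null samples both lying at 6.41. All 3 probe sets were higher in null testes. The probe set 1441855_x_at, under 1.5-fold and so not called, passed an adjusted p under 0.05 in 8 of 16 alternatives. It did not pass without WT replicate 1, 2 or 4 or null replicate 1, 3 or 5, one at a time, with adjusted p up to 0.0618.

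Cxcl10 and Cxcl16 are ligands of CXCR3 and CXCR6, receptors of activated T cells, and Cxcl10 is induced by interferon. Cxcl10 (1418930_at) gave 5.89, 5.08, 5.26 and 5.08 in WT and 5.11, 5.28, 5.19, 5.19 and 4.66 in null testes. WT replicate 1 was high and null replicate 5 low, the remaining 7 samples lay together, and the difference was -0.24 (95% interval -0.64 to 0.15, adjusted p = 0.455). Cxcl16 encodes a ligand that also exists as a membrane-bound form. Its 2 probe sets gave differences of -0.06 (1449195_s_at, 95% interval -0.25 to 0.13, adjusted p = 0.719) and 0.05 (1418718_at, 95% interval -0.17 to 0.26, adjusted p = 0.812). With the former the null samples lay between 7.59 and 7.69, inside the WT range of 7.40 to 7.83.

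Cx3cl1 encodes fractalkine, a membrane-anchored ligand with an adhesive stalk that is shed by ADAM10 and ADAM17. Of its 4 probe sets, 2 stayed below the detection level, and the differences ran from -0.08 to 0.11. The probe set with the smallest p, 1415804_at, gave 6.21, 6.06, 6.11 and 5.71 in WT and 6.20, 6.03, 6.24, 6.04 and 6.14 in null testes. Except for the low WT replicate 4 the samples lay together (difference 0.11, 95% interval -0.11 to 0.32, adjusted p = 0.549).

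Cxcr4 encodes the receptor of CXCL12 and was the only receptor in the set. Its probe set 1448710_at gave log2 signals of 9.63, 8.94, 9.57 and 9.51 in WT. In null testes the signals were 10.27, 9.81, 10.04, 9.98 and 10.29. WT replicate 2 was the lowest, and the groups did not overlap, although the gap between the highest WT and the lowest null sample was smaller than the range within either group. Cxcr4 rose by 0.66 (standard error 0.15, 95% interval 0.34 to 0.99, adjusted p = 0.0241, limma), a 1.59-fold higher signal. The call was lost without null replicate 1 (adjusted p = 0.0613), 3 (0.0502) or 5 (0.0612), while the size stayed between 0.51 and 0.74 with any 1 sample left out. Without WT replicate 2 the change was 0.51, which is under 1.5-fold.

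Cxcl12, its ligand, was read by 3 probe sets, all higher in null testes, and none passed. With 1448823_at the signals were 8.99, 9.14, 9.74 and 9.18 in WT and 10.04, 9.55, 9.81, 9.55 and 10.04 in null testes. WT replicate 3 lay among the null samples and the other WT samples below all of them. The difference was 0.54 (standard error 0.16, 95% interval 0.18 to 0.90, adjusted p = 0.0751). With 1417574_at the signals were 7.12, 7.26, 7.49 and 7.14 in WT and 7.68, 7.65, 7.58, 7.44 and 7.98 in null testes, again overlapping through WT replicate 3 alone, and the difference was 0.41 (standard error 0.11, adjusted p = 0.0534). With 1439084_at it was 0.13 (95% interval -0.07 to 0.32, adjusted p = 0.432). Without WT replicate 3 the first of these gave 0.69 (adjusted p = 0.0129) and the second 0.49 (adjusted p = 0.0257). Ackr3, an atypical receptor that binds CXCL12 and removes it, differed by 0.12 (95% interval -0.14 to 0.37, adjusted p = 0.583).

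**Figure D2:**
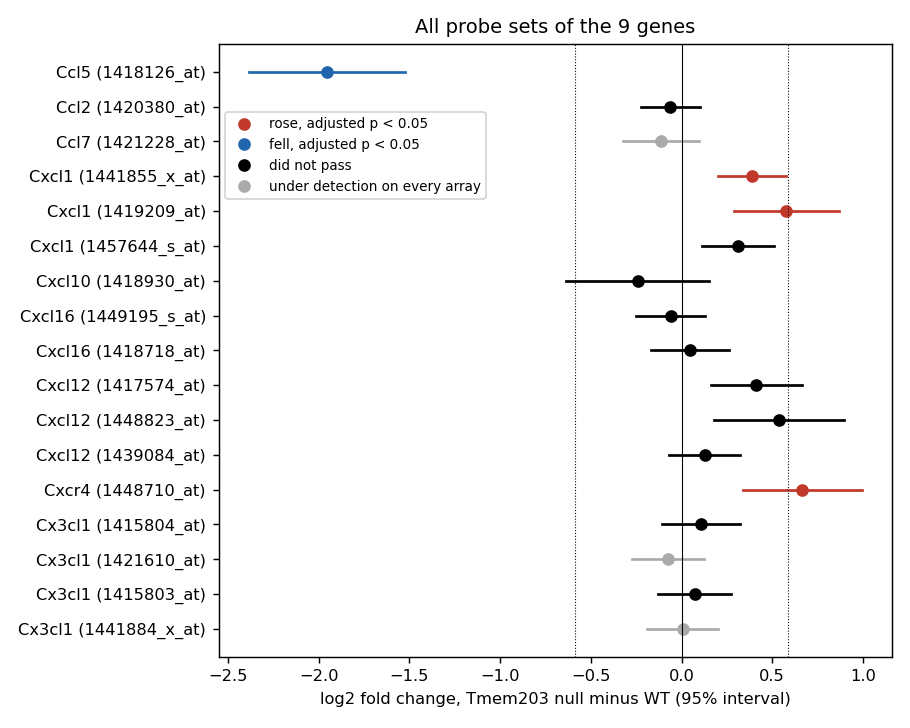
Log2 fold change (Tmem203 null minus WT) of all 17 probe sets of the 9 genes with the 95% interval from limma, in blue or red where the adjusted p was under 0.05, in black where it was not and in grey where no array reached the detection level; dotted lines mark 1.5-fold. Ccl5 lies at -1.95, apart from the 16 other probe sets, which lie between -0.24 and 0.66.

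Among the other chemokine genes, 48 were measured: 15 CC ligands, 12 CXC or XC ligands, 15 receptors and 6 atypical receptors. Of these, 34 reached the detection level, 1 rose (Cx3cr1) and 3 fell (Ccl17, Ccr4 and Ccrl2). Over all genes 7.22% rose and 6.24% fell, or 13.5% together, so the family as a whole showed no larger share of changes. Ccl17 and Ccr4 are a ligand and its receptor, known from dendritic cells and from T helper and regulatory T cells. Ccl17 (1419413_at) gave 8.65, 8.81, 9.07 and 8.67 in WT and 8.14, 8.44, 8.31, 8.14 and 8.14 in null testes. The groups did not overlap, and Ccl17 fell by 0.56 (standard error 0.10, adjusted p = 0.0079). Ccr4 (1421655_a_at) gave 8.19, 8.23, 8.17 and 8.26 in WT and 7.56, 7.79, 7.51, 7.73 and 7.61 in null testes. Its samples were tight in both groups and separate, and Ccr4 fell by 0.57 (standard error 0.07, adjusted p = 9.55e-04), just under 1.5-fold. Ccl22, the other ligand of CCR4, differed by -0.13 (95% interval -0.42 to 0.15, adjusted p = 0.580), a value given for its receptor and outside the rule for named genes.

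Ccrl2 encodes an atypical receptor that binds chemerin without signalling through G proteins. Its signals were 6.44, 6.44, 6.51 and 6.65 in WT and 5.96, 5.91, 6.04, 5.90 and 5.63 in null testes. It fell by 0.63 (standard error 0.08, adjusted p = 0.00218), without overlap, and was called at 1.5-fold. Cx3cr1, the receptor of fractalkine on macrophages and microglia, gave 7.38, 7.54, 6.76 and 7.11 in WT and 7.79, 7.66, 7.76, 7.93 and 7.58 in null testes with 1450020_at. The gap between the groups was narrow, and Cx3cr1 rose by 0.54 (standard error 0.14, adjusted p = 0.0452), while 1450019_at was at 0.23 and did not pass (adjusted p = 0.254).

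Several receptors of the ligands described above were dim on these arrays. The signals of Ccr1 and Ccr3, receptors of CCL5, of Cxcr2, the receptor of CXCL1, and of Cxcr6, the receptor of CXCL16, stayed below the detection level on every array. Of the brighter genes of the family, Ccl27a differed by -0.25 (adjusted p = 0.114), Ccr6 by -0.15 (adjusted p = 0.367), Ccr7 by -0.34 (adjusted p = 0.0744) and Pf4, the platelet chemokine CXCL4, by 0.30 (adjusted p = 0.177). Cxcl13, a B cell attractant, was the most scattered of them, from 4.46 to 7.27 in WT and from 6.04 to 7.55 in null testes, with a difference of 0.97 (95% interval -0.11 to 2.06, adjusted p = 0.268). With the probe set of the highest signal, Ccl28, Ccl25, Cxcl14, Ackr4 and Pitpnm3 differed by between -0.13 and -0.01, and none of the 5 passed.

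**Figure D3:**
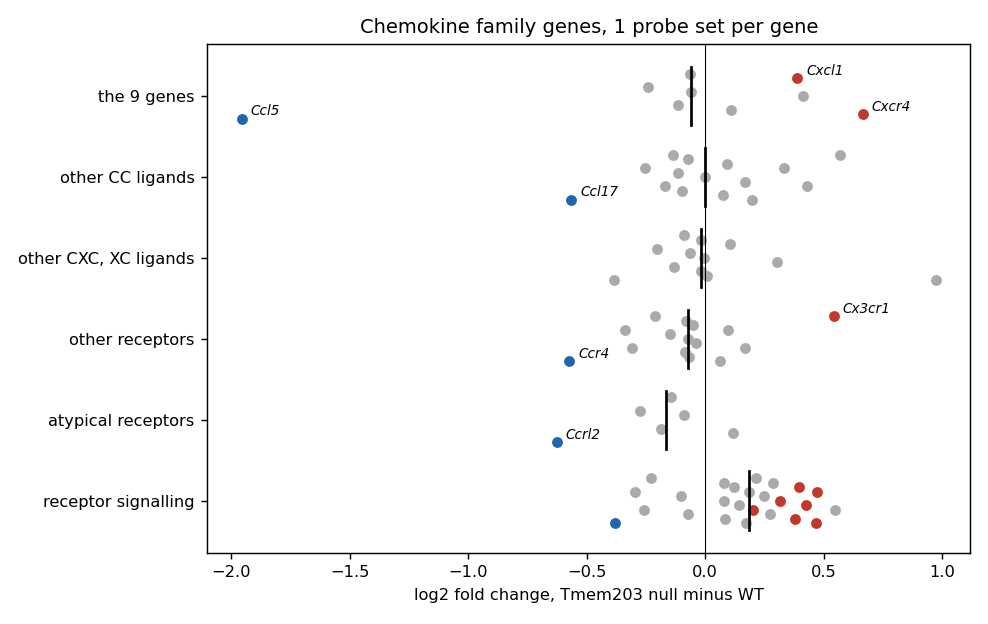
Log2 fold change (Tmem203 null minus WT) of the 9 genes and of the other chemokine ligands, receptors, atypical receptors and signalling genes, 1 point per gene (the probe set with the smallest p), with red for genes that rose, blue for genes that fell and a black line at the median of each row. Genes that passed are named except in the signalling row, where 7 rose and 1 fell; the vertical scatter within a row has no meaning.

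The signalling list holds genes that act below chemokine receptors and also proteases that cut their ligands. Of its 28 genes 25 were measured, and 7 rose, 1 fell and 17 did not pass. Over all genes 7.22% rose and 6.24% fell. Adam10, the sheddase of CX3CL1 and CXCL16, rose by 0.43 (standard error 0.06, adjusted p = 0.00371). Stat3 rose by 0.47 (adjusted p = 0.0094) and Gnai1, a subunit of the inhibitory G protein to which these receptors couple, by 0.47 (adjusted p = 0.0114). Another probe set of Gnai1 was at -0.17 and did not pass (adjusted p = 0.317). Arrb2, a beta-arrestin that takes activated receptors off the membrane, fell by 0.38 (adjusted p = 0.0248). None of the 8 reached 1.5-fold. Of 15 measured targets of NF-kB and interferon, 3 rose, 0 fell and 12 did not pass. Those that rose were Tnfaip3, by 0.47 (adjusted p = 0.00286), Nfkbia, by 0.30 (adjusted p = 0.0105), both feedback inhibitors of NF-kB, and Relb, an NF-kB subunit, by 0.36 (adjusted p = 0.017). With the probe set of the highest signal, the median difference was 0.12 over the signalling list and 0.10 over the targets, beside -0.02 over all genes.

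Markers of cell types that make or bind chemokines are given beside these results, and their part in them was not tested. Their counts stand beside shares of 7.22% that rose and 6.24% that fell over all genes, or 13.5% together. Beside the fall of Ccl5, 2 of 15 T and NK cell markers fell and 0 rose. Eomes, a transcription factor of cytotoxic lymphocytes, fell by 1.18 (standard error 0.11, adjusted p = 2.81e-04), and Gzma, a granzyme, fell by 0.50 (standard error 0.12, adjusted p = 0.0353). Both reached the detection level in WT testes alone, Eomes on 4 arrays and Gzma on 3, and every null sample was below it. The mean log2 signal of the list ran from 5.76 to 6.12 in WT and from 5.62 to 5.72 in null testes. Without Eomes, a choice made after seeing the data, it ran from 5.76 to 6.16 and from 5.70 to 5.82, and the groups overlapped. Of the defining markers, Gzmb, Klrd1 and Ncr1 stayed below the detection level on every array. Cd3e ran from 8.16 to 8.92 in WT and from 8.38 to 8.71 in null testes (difference 0.04, adjusted p = 0.884). WT replicate 1 had the highest mean of these markers and, among all samples, the highest signals of Ccl5 and Cxcl10. The other WT samples did not follow this order. WT replicate 2 had the lowest WT list mean (5.76) and a Ccl5 signal of 7.59. WT replicate 4 had a higher list mean (5.82) and the lowest WT signal of Ccl5 (7.30).

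Beside the rise of Cx3cr1, 2 of 14 macrophage markers rose, Mrc1 by 0.41 (adjusted p = 0.0127) and Cd163 by 0.58 (adjusted p = 0.0346), and 12 did not pass. The list mean ran from 8.37 to 8.74 in WT and from 8.66 to 8.86 in null testes, and the groups overlapped. B cell and granulocyte markers had 1 fall in 6, that of Elane, which was below the detection level throughout. Over all genes 7.22% rose and 6.24% fell.

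Beside Cxcl12 and Cxcr4, 7 of 11 Sertoli cell markers rose and 0 fell, with Gata4 at 0.38, Sox9 at 0.38 and Amhr2 at 0.31, and the list mean was 10.19 ± 0.08 in the WT samples (SD, n = 4) and 10.45 ± 0.06 in the null samples (SD, n = 5), without overlap. Of 6 Leydig cell markers 4 rose, including Hsd3b1 by 0.64 (adjusted p = 0.0118) and Cyp11a1 by 0.50 (adjusted p = 0.00468), although the brightest probe set of Cyp11a1 was at 0.34 and did not pass (adjusted p = 0.383). The Leydig list mean of WT replicate 3, at 11.44, lay among the null samples. Of 10 spermatogonial markers 2 rose, the stem cell receptor gene Gfra1 by 1.27 (standard error 0.13, adjusted p = 5.02e-04) and Kit by 0.46 (adjusted p = 0.0122). The brightest probe set of Gfra1 did not pass and was at -0.17 (adjusted p = 0.153), the opposite sign. Peritubular myoid cells had 1 rise in 8 markers (Ptch1), endothelium 1 fall in 9 (Vwf) and spermatids 0 changes in 12. The shares over all genes were again 7.22% that rose and 6.24% that fell. The mean of the spermatid markers lay between 13.84 and 13.88 in all samples. Whether signals this high register a change in spermatid number was not tested. By flow cytometry the paper reported far fewer condensed haploid cells in testes of older null mice.

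**Figure D4:**
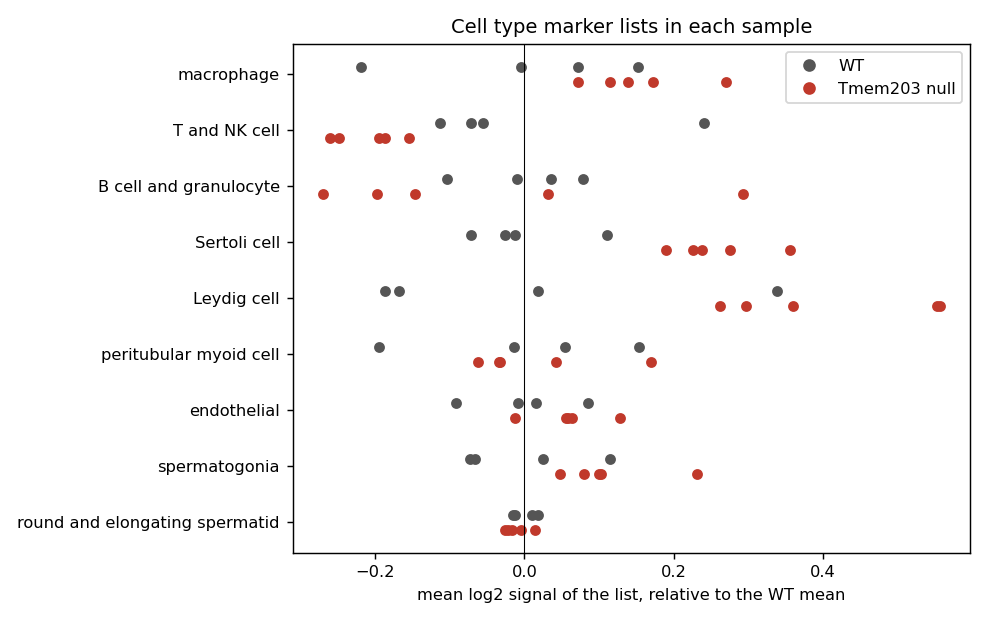
Mean log2 signal of each cell type marker list in each sample, relative to the WT mean of that list, with WT in grey and Tmem203 null in red. The groups separate for the Sertoli cell list, higher in null testes, and for the T and NK cell list, lower in null testes, where they overlap once Eomes is left out, and the spermatid list varies by less than 0.05.

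The genes whose pattern over the 9 samples was closest to each called gene were found as the smallest root-mean-square difference between log2 signals centred on their mean, among 29238 detected single-gene probe sets. For Ccl5, whose own root-mean-square deviation was 1.02, they were Cd164l2 (0.273), Ngb (0.378) and Col23a1 (0.380). For Cxcr4, with a deviation of 0.401, they were Kantr (0.0731), Usp9x (0.0771) and Nrk (0.0912). Each of these 6 genes had a higher or lower signal in null testes in the direction of the gene it resembled, which the choice itself brings about.

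Chemokine genes lie in clusters, and the measured genes on each side of the called ones in the RefSeq order were compared. None of 12 passed in limma, beside 13.5% of all genes. An unadjusted p under 0.05 was reached by 3, and no share of all genes was computed for that threshold. The neighbours of Ccl5 were Gas2l2, 1700020L24Rik, Taf15, Ccl9, E230016K23Rik and Ccl6. Of these 1700020L24Rik came nearest to passing, at -0.29 (adjusted p = 0.052) and without overlap. Ccl9, the nearest measured chemokine gene, was at -0.07 with a probe set below the detection level and at -0.11 (adjusted p = 0.639) with another that reached it on all 9 arrays. Beside Cxcr4 the neighbours Ubxn4, Lct, Mcm6, Thsd7b, Cd55b and Cd55 were all lower in null testes, by between 0.11 and 0.20, while Cxcr4 was higher.

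The array medians lay between 6.96 and 7.05. Tmem203 itself fell by 0.70 (standard error 0.06, adjusted p = 2.87e-04), to 9.06 to 9.13 in null from 9.67 to 9.93 in WT testes, and where its probe set lies relative to the replaced stretch is not given in the sources used here. WT replicate 3 stood apart on the second principal component and had the lowest array weight (0.313). Without it Ccl5 was at -1.99, Cxcr4 at 0.72 and Cxcl1 at 0.44, each still passing, and Cxcl12 passed, so that 3 of the 9 genes rose, 1 fell and 4 were called, Cxcl1 through 1419209_at, which gave 0.65. The difference between the control signals at the 3′ and 5′ ends of Gapdh, a sign of RNA integrity, was 0.93 ± 0.01 in the WT samples (SD, n = 4) and 0.85 ± 0.04 in the null samples (SD, n = 5) (two-sided exact permutation test, p = 0.0238), and for beta-actin it did not pass (p = 0.341, the same exact test); its part in the results was not tested.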

How the data were processed

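The deposited values are log2 signals of Affymetrix mouse expression arrays, 1 per testis RNA sample. The authors checked the scans, applied RMA (background adjustment, quantile normalization, summary of each probe set) and excluded no array. Of tools, the submitters' processing notes list only limma, without its version. The scans and their dates were not used here, so neither background nor batch could be varied.

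Null and WT were compared by the lmFit and eBayes functions of limma 3.58.1 (R 4.3.3) on 45037 probe sets, leaving aside 64 manufacturer controls, with Benjamini-Hochberg adjustment over all. Symbols came from the platform annotation (34945 probe sets with 1 symbol, 932 with several, 9160 with none), and 34741 were matched to the RefSeq table of GRCm38.p6 by Entrez identifier. A gene was called at an adjusted p under 0.05, 1.5-fold and a signal of at least 32 (log2 of 5) on 1 array, as in the methods. The members and lists were chosen with earlier results of these data known. Genes named beside the members are the family genes that passed, those with the highest signal, up to 3 of each list by p, and neighbours and likest patterns of called members; receptors of the members and defining markers were named in addition, after their values were seen. On simulated data of these samples, an adjusted p under 0.05 alone recovered 36 of 50 changes of 1.5-fold and 46 of 50 of 2-fold. Of the 193 probe sets that passed there, 12 were false. The 1.5-fold and detection thresholds were not applied there, and only 50 probe sets changed at each fold, while 3367 passed in the data. These shares therefore do not give the error rates of the genes called here. Alternatives covered scaling, variance model, array weights, dim and cross-hybridizing probe sets, the replicate number, each sample left out, the choice of probe set, the fold threshold and the methods' t-test. The last is the unpaired t-test of the paper's general statistics, which the paper does not name for its arrays. Python 3.11.15 joined tables and drew figures.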

Additional observations from a re-analysis of the deposited data

Results flagged for a closer look

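In 2 of 34 groups of samples (a probe set of the 9 genes in WT or in null testes), 1 sample lay far from the others, and chance gives about 1 in 20. Null replicate 5 had a Cxcl10 log2 signal of 4.66, where the other null samples lay between 5.11 and 5.28. WT replicate 3 had a signal of 4.73 with 1439084_at of Cxcl12, where the other 3 WT samples all read 5.13.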

How the results depend on the processing

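Ccl5 passed in all 17 alternatives run, with log2 fold changes between -2.10 and -1.78. Cxcr4 kept its direction in all 17 and passed in 13: it did not pass with the methods' t-test (0.66, adjusted p = 0.0819), and with 1 sample left out its change ran from 0.51 to 0.74. Cxcl1 (1441855_x_at) passed in 8 of 16, not with the methods' t-test (0.39, adjusted p = 0.0625) nor with the replicate block (0.35, adjusted p = 0.0970), and ran from 0.35 to 0.44 with 1 sample left out. The number of the 9 genes that rose, 2 as reported, was 1 with the replicate block and with the brightest probe set and 0 with the methods' t-test. It was 3, with Cxcl12 in addition, without dim probe sets, with eBayes with trend and robust, and with array weights. With 1 sample left out it ran from 0 to 3 (0 without null replicate 3 or 5). At that t-test's own threshold, an unadjusted p under 0.01, it gave 2 rises and 1 fall, a setting added after seeing the data. The paper compared its arrays with limma and adjusted p. The number called, 2 as reported, was 4 with array weights (Cxcl12, and Cxcl1 through 1419209_at at 0.60, in addition). It was 3 with a further quantile normalization (Cxcl1 through that probe set, at 0.61, in addition) and 1 with the t-test or at 2-fold. With 1 sample left out it ran from 1 to 4 (1 without WT replicate 2 or null replicate 3 or 5, 4 without WT replicate 3, again with Cxcl12 and that probe set of Cxcl1). Of the other chemokine genes, 4 as reported, from 3 to 5 passed in the alternatives. The cause of these shifts was not tested. The replicate block used replicates 1 to 4 and so dropped null replicate 5. Same-numbered deviations correlated between -0.06 and 0.08 and so gave no sign that the replicate numbers pair the samples. Such correlations cannot exclude a shared litter or batch, and the labels name neither. The scans were not used, so signal over background could not be judged for dim probe sets such as Ccl7.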
